A study of Homo sapiens with 6 samples.

Results

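The 45 genes described here build, start or feed the DNA replication fork, or drive entry into S phase. They were chosen by symbol, from a list of replication and S-phase genes, with earlier results of these data known. Shares of the members set beside those of all genes are therefore descriptions only. All 45 were found among the 62260 gene rows of the files and among the 14166 genes that passed the filter on low counts. They were measured in TYK-nu, an established human ovarian cancer cell line, in 2 groups of 3 libraries that the labels call biological replicates: wild type (WT) and cells in which ZNFX1, an RNA helicase-like protein of antiviral RNA sensing, had been knocked out (ZNFX1 KO). All cells were untreated and share the line, the medium and 1 batch label. The labels give no method of knockout and name no second KO clone, so the loss of ZNFX1 and anything else in which the KO cells differ from WT cannot be told apart here. Nothing more is said of whether they came from separate cultures, so a p-value measures only the spread between these libraries.

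Replication starts at origins that the origin recognition complex marks in G1 phase. CDC6 and CDT1 then load the ring-shaped MCM2 to MCM7 helicase there, and geminin (GMNN) holds CDT1 in check once S phase has begun. CDC45 and the GINS complex turn the loaded ring into the moving helicase, DNA polymerase alpha with primase lays down primers, and polymerases delta and epsilon extend them on the sliding clamp PCNA. Transcription of many of these genes is switched on at the border of G1 and S phase by E2F factors, which is why the group is widely read as a measure of how many cells of a culture are dividing. In RNA of whole cultures, fewer cells in S phase and less of these mRNAs per cell cannot be told apart.

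Since the levels of the members varied together across the libraries, the promoters of 5 of them are shown as reference sequence. They are the 4 members with the smallest unadjusted p in the comparison that hold an E2F word and the 1 with the smallest that holds none. The windows run from 250 bases before to 50 after the gene start, 5′ to 3′ on the strand of the gene, from RefSeq (GRCh38.p14). Capitals mark an E2F word, searched on both strands as TTTCCCGC, TTTGGCGC, TTTCGCGC or TTTGCCGC. POLA1 lies on the plus strand of the X chromosome (chrX:24693668-24693967), PCNA on the minus strand (chr20:5126573-5126872), E2F1 on the minus strand (chr20:33686336-33686635), DTL on the plus strand (chr1:212035498-212035797) and RPA1 on the plus strand (chr17:1829755-1830054).
POLA1: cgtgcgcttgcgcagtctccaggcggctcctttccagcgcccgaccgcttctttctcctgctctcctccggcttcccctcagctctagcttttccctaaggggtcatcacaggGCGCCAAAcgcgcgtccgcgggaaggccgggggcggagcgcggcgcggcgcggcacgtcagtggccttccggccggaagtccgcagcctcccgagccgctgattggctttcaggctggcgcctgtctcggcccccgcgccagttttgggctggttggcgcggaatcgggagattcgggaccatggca
PCNA: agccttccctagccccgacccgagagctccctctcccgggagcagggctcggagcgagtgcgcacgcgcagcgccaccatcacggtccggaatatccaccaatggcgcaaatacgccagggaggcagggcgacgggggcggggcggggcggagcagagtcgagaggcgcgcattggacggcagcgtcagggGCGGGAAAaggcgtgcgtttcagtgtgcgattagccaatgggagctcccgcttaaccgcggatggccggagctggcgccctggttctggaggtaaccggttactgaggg
E2F1: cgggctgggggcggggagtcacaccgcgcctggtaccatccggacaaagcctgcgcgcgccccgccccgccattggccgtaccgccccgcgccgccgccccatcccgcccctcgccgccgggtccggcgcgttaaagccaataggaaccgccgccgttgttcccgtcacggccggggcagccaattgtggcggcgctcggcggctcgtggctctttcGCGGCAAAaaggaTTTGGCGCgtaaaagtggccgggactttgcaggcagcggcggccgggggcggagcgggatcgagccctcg
DTL: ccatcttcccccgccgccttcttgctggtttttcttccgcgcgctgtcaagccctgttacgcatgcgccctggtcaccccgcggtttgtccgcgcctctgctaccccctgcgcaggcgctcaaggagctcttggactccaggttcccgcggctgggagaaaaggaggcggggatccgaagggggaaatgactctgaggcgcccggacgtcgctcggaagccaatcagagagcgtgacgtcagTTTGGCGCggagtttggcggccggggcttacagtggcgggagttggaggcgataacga
RPA1: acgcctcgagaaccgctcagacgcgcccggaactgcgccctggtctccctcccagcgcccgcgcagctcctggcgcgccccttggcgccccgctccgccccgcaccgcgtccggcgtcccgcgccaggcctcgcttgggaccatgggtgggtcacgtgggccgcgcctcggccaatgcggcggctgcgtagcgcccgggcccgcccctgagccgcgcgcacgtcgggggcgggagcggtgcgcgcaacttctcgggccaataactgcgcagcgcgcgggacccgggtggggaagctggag
The E2F1 window holds 2 such words, and those of POLA1, PCNA and DTL hold 1 each. The word nearest to its start is that of DTL, which begins 8 bases before it, and the word of POLA1 begins 137 bases before it. PCNA and E2F1 each have 3 CCAAT boxes, the binding word of NF-Y, RPA1 has 2, and POLA1 and DTL have 1 each.

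A window was found for 38 of the 45 members, all but MCM4, MCM5, GINS4, POLD3, RPA2, RPA3 and CCNE2. Of these, 21 (55.3%) held an E2F word in at least 1 window, as did 3.99% of the 27305 genes with a window of the same length. CCAAT was in 22 of the 38 (57.9%), against 39.7% of all genes. TTTGAA, the word of the cell cycle genes homology region that marks many mitotic genes, was in 0 of the 38 and in 18.2% of all genes, whereas 16 of 21 G2 and M genes (76.2%) held it. The 21 members with an E2F word had a median log2 fold change of 0.66 and a median ratio of WT 3 to WT 2 of 4.32 (range 1.95 to 9.85). The 17 without one had 0.59 and 2.83 (range 1.11 to 8.70), so the ranges of the ratio overlapped widely, and the difference was not tested. A match of letters is a description of the sequence only.

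The libraries held 21413002 to 23494771 assigned fragments, of which 19115530 to 21036063 fell on gene rows. A member had between 44 (POLE2 in WT 2) and 14468 (MCM7 in ZNFX1 KO 1) of them in a library. Levels are given as CPM, counts scaled to a common library size, and, where genes are compared with each other, as TPM, which also divides by length. ZNFX1 mRNA was at 129.7, 208 and 109 CPM across WT 1, 2 and 3, against 103, 70.5 and 75.2 CPM across ZNFX1 KO 1, 2 and 3. The groups did not overlap, with the KO the lower, but the difference did not pass (log2 fold change -0.85 with an SE of 0.27, adjusted p = 0.218 by edgeR; exact two-sided permutation test p = 0.1, the smallest that 3 against 3 allow), so that the mRNA checks the labels only in part. Of the markers of ovarian carcinoma lines, VIM was at 1332 to 1881 TPM and KRT18 at 38.9 to 88.5 TPM, while PAX8, MUC16, MSLN, KRT7 and CDH1 had at most 2 reads in any library. KRT8 was at 3.76 to 11.5 TPM, WT1 at 1.13 to 2.36 TPM and KRT19 at 0.052 to 1.14 TPM. EPCAM had 31, 33.8 and 5.30 reads across WT 1, 2 and 3 and 0 in each KO library. The endothelial genes CDH5 and TIE1 were at 67.5 to 103 TPM and 75.9 to 99.1 TPM, and CLDN5 had at most 1 read. The leukocyte genes PTPRC, CD3D, MS4A1 and NKG7 had 0 reads in all 6 libraries, whereas LYZ of the same list had 8.57 (WT 1) to 168 reads (ZNFX1 KO 1). CD68 of that list is given below. The fibroblast collagen genes COL1A1, COL1A2 and COL3A1 had at most 7 reads, whereas THY1 of the same list was at 11.5 to 15.8 TPM in every library.

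The study set ZNFX1 KO beside WT cells. The replication genes had higher mean levels in the KO in most cases, but the WT libraries differed widely among themselves, and 0 of the 45 members had an adjusted p under 0.05 (edgeR quasi-likelihood test, Benjamini-Hochberg adjustment over 14166 genes). Of all genes tested, 0.727% passed. The log2 fold change (KO over WT) was above 0 in 43 of 45 members, against 48.8% of all genes, with a median of 0.59 over the members and -0.012 over all genes. The members' adjusted p lay between 0.307 and 0.988. At an unadjusted p under 0.05, 2 members were higher, RPA1 and PRIM2 (4.44%, against 5.92% of all genes). In 3 members, RPA1, PRIM2 and DTL, every KO library lay above every WT library (6.67%, against 9.39% of all genes). By both of these edgeR and overlap counts the share of the members was no larger than that of all genes. The DESeq2 Wald test and limma-voom also called 0 members, but at an unadjusted p under 0.05 they had 6 members higher by DESeq2 (13.3%, against 6.9% of all genes) and 8 by limma-voom (17.8%, against 6.66%), shares above those of all genes.

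Most members shared an order of the libraries. WT 2 was the lowest of the 6 libraries in 43 of the 45 members, against 26.9% of all genes tested. WT 3 was the highest in 22 of 45, against 13.7%. WT 1 and WT 2 both lay below WT 3 and every KO library in 38 of 45, against 19.8%. The full order of WT 2, WT 1, all KO libraries and WT 3 was seen in 18 of 45, against 3.02%. Relative to each gene's mean over the 6 libraries, the median of the members on the log2 scale was -0.38, -1.34 and 0.53 across WT 1, 2 and 3, and 0.39, 0.32 and 0.45 across ZNFX1 KO 1, 2 and 3. The KO libraries thus lay between WT 1 and WT 3, close to WT 3. In CPM, the KO mean was a median of 3.17 times WT 2, 1.72 times WT 1 and 0.904 times WT 3. Together the members took 0.192%, 0.106% and 0.367% of the gene fragments across WT 1, 2 and 3, and 0.339%, 0.288% and 0.328% across ZNFX1 KO 1, 2 and 3. The KO mean was above WT 2 in 45 members, above WT 1 in 43 and at least as high as WT 3 in 9. Pairs of libraries were also compared over the genes tested, by chi-square per degree of freedom, smaller where counts are more alike. For WT 3 it was 56.3, 75.0 and 57.7 against ZNFX1 KO 1, 2 and 3, and 71.5 and 130 against WT 1 and WT 2. The nearness of WT 3 to ZNFX1 KO 1 and 3 was thus not confined to the members.

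**Figure D1:**
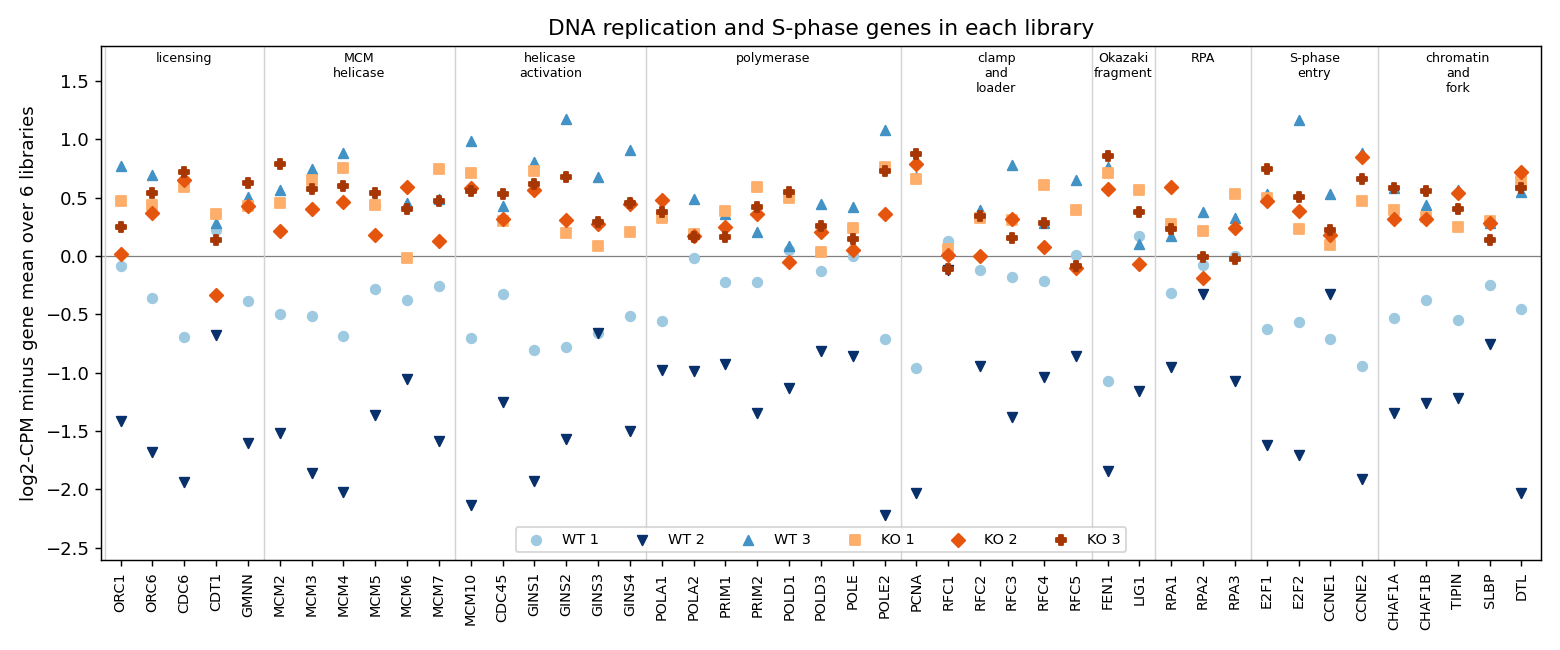
Each column is 1 member, grouped by role, and each point 1 library, as log2-CPM minus the gene's mean over the 6 libraries. WT 2 is the lowest point in 43 of 45 columns and WT 3 the highest in 22, while the 3 KO libraries lie close together.

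In the members' levels the 3 KO libraries lay closer together than the 3 WT libraries. The SD of log2-CPM was larger among the 3 WT than among the 3 KO libraries in 45 of 45 members, against 59.5% of all genes tested. Its median over the members was 0.89 in WT and 0.14 in the KO, against 0.30 and 0.23 over all genes. The ratio of WT 3 to WT 2 in CPM ran from 1.11 (RFC1) to 9.85 (POLE2) with a median of 3.45, and was at least 2 in 41 members and at least 4 in 20. The ratio of the highest to the lowest KO library ran from 1.01 (POLA2) to 1.62 (CDT1), with a median of 1.20. In 30 members the SD in WT was at least 5 times that in the KO. No test of the difference in spread was run.

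**Figure D2:**
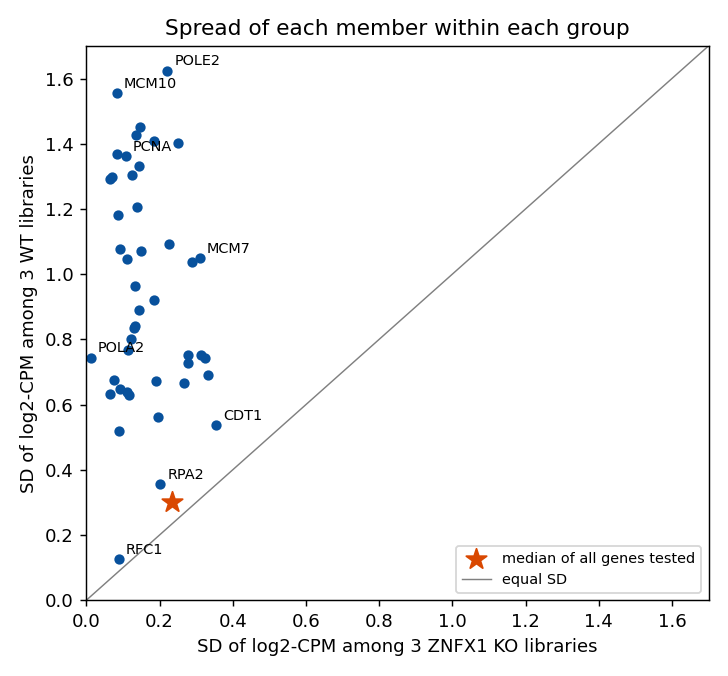
Each point is 1 member, with the SD of its log2-CPM among the 3 KO libraries on the x axis and among the 3 WT libraries on the y axis. All 45 points lie above the line of equal SD, and the star gives the medians of all genes tested, 0.23 and 0.30.

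Of the 5 licensing genes, 4 had WT 1 and WT 2 below the other 4 libraries, all but CDT1, and ORC1 and ORC6 also had WT 3 above every KO library. CDC6, which loads the helicase, was at 23.95, 10.2 and 61.3 CPM across WT 1, 2 and 3, against 58.5, 61.04 and 64.05 CPM across ZNFX1 KO 1, 2 and 3. WT 3 and the KO libraries were thus alike, and WT 1 and WT 2 were low (log2 fold change 0.94 with an SE of 0.52, adjusted p = 0.418 by edgeR). GMNN, the inhibitor of CDT1, was at 11.2, 4.81 and 20.7 CPM across WT 1, 2 and 3, against 19.7, 19.7 and 22.5 CPM across ZNFX1 KO 1, 2 and 3. As for CDC6, WT 3 lay among the KO libraries (log2 fold change 0.75 with an SE of 0.43, adjusted p = 0.432 by edgeR). ORC1 and ORC6, subunits of the origin recognition complex, were at 22.1 ± 14.6 CPM for WT against 26.2 ± 4.11 CPM for ZNFX1 KO (mean ± SD, n = 3 per group) for ORC1 and 16.7 ± 12.3 CPM for WT against 25.3 ± 1.53 CPM for ZNFX1 KO (mean ± SD, n = 3 per group) for ORC6. CDT1, the loading factor that is destroyed during S phase, is given with its values already known. It was at 34.4, 18.4 and 35.8 CPM across WT 1, 2 and 3, against 37.9, 23.4 and 32.5 CPM across ZNFX1 KO 1, 2 and 3, so that WT 1 and WT 3 lay above ZNFX1 KO 2 and 3 (log2 fold change 0.082 with an SE of 0.29, adjusted p = 0.911 by edgeR). Of the reads of ORC6, 56.3% were in its gene row and the rest in transcript rows that the authors' files list apart.

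The 6 subunits of the MCM helicase all had WT 2 as their lowest library and WT 1 as the next. MCM7 was the most abundant member of all, at a mean of 134 TPM over the 6 libraries. It was at 351, 139.7 and 586 CPM across WT 1, 2 and 3, against 702, 458 and 579 CPM across ZNFX1 KO 1, 2 and 3. WT 3 lay inside the range of the KO libraries (log2 fold change 0.69 with an SE of 0.44, adjusted p = 0.475 by edgeR). MCM4 was at 96.4, 38.3 and 287 CPM across WT 1, 2 and 3, against 263, 214 and 236 CPM across ZNFX1 KO 1, 2 and 3. Here WT 3 exceeded every KO library, and the group means were 140.5 ± 129.9 CPM for WT against 237 ± 24.3 CPM for ZNFX1 KO (mean ± SD, n = 3 per group). The difference did not pass (log2 fold change 0.76 with an SE of 0.58, adjusted p = 0.549 by edgeR). MCM3 kept the same order, with WT 3 at 6.11 times WT 2. MCM2, MCM5 and MCM6 had WT 3 at 4.22, 3.56 and 2.84 times WT 2, and their log2 fold changes were 0.75 (SE 0.44), 0.60 (SE 0.39) and 0.54 (SE 0.35).

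Genes that activate the helicase had the largest median SD among the WT libraries of all roles, 1.29, against 0.12 among the KO libraries. GINS1, a subunit of the GINS complex, was at 23.03, 10.6 and 70.4 CPM across WT 1, 2 and 3, against 66.6, 59.4 and 61.6 CPM across ZNFX1 KO 1, 2 and 3. The 3 KO libraries lay just below WT 3 and far above WT 1 and WT 2 (log2 fold change 0.85 with an SE of 0.55, adjusted p = 0.485 by edgeR). CDC45, which joins MCM and GINS in the moving helicase, was at 19.7, 10.4 and 33.4 CPM across WT 1, 2 and 3, against 30.4, 30.8 and 35.8 CPM across ZNFX1 KO 1, 2 and 3. Its WT 3 value lay among those of the KO (log2 fold change 0.61 with an SE of 0.36, adjusted p = 0.442 by edgeR). MCM10, which helps to start the fork, had WT 3 at 8.70 times WT 2. GINS2, GINS3 and GINS4 were higher in WT 3 than in every KO library, at 42.0, 37.8 and 57.9 CPM in WT 3 against KO means of 24.7, 27.5 and 39.8 CPM. For GINS3, WT 1 and WT 2 were at 14.97 CPM each.

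Polymerase and primase genes had a median SD of 0.68 in WT and 0.11 in the KO. POLA1, the catalytic subunit of polymerase alpha, was at 32.9, 24.7 and 61.9 CPM across WT 1, 2 and 3, against 60.9, 67.5 and 62.9 CPM across ZNFX1 KO 1, 2 and 3. WT 3 lay inside the range of the KO and the other WT libraries below it (log2 fold change 0.68 with an SE of 0.31, adjusted p = 0.347 by edgeR). PRIM2, the large primase subunit, was at 36.2, 16.6 and 48.8 CPM across WT 1, 2 and 3, against 63.6, 54.1 and 56.4 CPM across ZNFX1 KO 1, 2 and 3. It was 1 of the 3 members whose groups did not overlap (log2 fold change 0.78 with an SE of 0.34, adjusted p = 0.329 by edgeR, unadjusted p = 0.0486). PRIM1, the catalytic primase subunit, was at 25.2, 15.5 and 37.8 CPM across WT 1, 2 and 3, against 38.4, 35.1 and 33.01 CPM across ZNFX1 KO 1, 2 and 3 (log2 fold change 0.44 with an SE of 0.29, adjusted p = 0.495 by edgeR). POLD1, the catalytic subunit of polymerase delta, was the member of this role in which WT 1 and WT 3 were nearly equal, at 49.6 and 50.9 CPM, with 40.8 ± 16.4 CPM for WT against 61.2 ± 13.1 CPM for ZNFX1 KO (mean ± SD, n = 3 per group). POLE2, a subunit of polymerase epsilon, was the scarcest of the role in CPM and had the largest ratio of WT 3 to WT 2 of all members, 21.9 against 2.23 CPM. The log2 fold changes of POLE2, POLA2, POLD3 and POLE were 0.66 (SE 0.64), 0.22 (SE 0.32), 0.25 (SE 0.29) and 0.20 (SE 0.29).

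PCNA, the sliding clamp (ENSG00000132646.11), had the largest log2 fold change of the 45. It was at 47.6, 22.6 and 148 CPM across WT 1, 2 and 3, against 146, 160.1 and 169 CPM across ZNFX1 KO 1, 2 and 3. The group means were 72.7 ± 66.3 CPM for WT against 159 ± 11.7 CPM for ZNFX1 KO (mean ± SD, n = 3 per group), and WT 3 lay between ZNFX1 KO 1 and ZNFX1 KO 2 (log2 fold change 1.12 with an SE of 0.56, adjusted p = 0.379 by edgeR). By contrast RFC1, the large subunit of the clamp loader, was nearly level, at 152, 128 and 141 CPM across WT 1, 2 and 3, against 145, 139 and 128 CPM across ZNFX1 KO 1, 2 and 3. The groups overlapped fully and WT 3 was 1.11 times WT 2 (log2 fold change -0.029 with an SE of 0.16, adjusted p = 0.943 by edgeR). RFC1 was the only member with its WT spread, an SD of 0.13, below 0.30, the median of all genes. RFC2, a small subunit of the loader, was at 58.8, 33.2 and 84.03 CPM across WT 1, 2 and 3, against 79.9, 64.01 and 81.00 CPM across ZNFX1 KO 1, 2 and 3 (log2 fold change 0.35 with an SE of 0.30, adjusted p = 0.588 by edgeR). RFC3, RFC4 and RFC5 had WT 3 at 4.47, 2.50 and 2.83 times WT 2 and log2 fold changes of 0.27 (SE 0.44), 0.56 (SE 0.31) and 0.028 (SE 0.34). Over the 5 subunits of this complex the ratio of WT 3 to WT 2 thus ran from 1.11 to 4.47.

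FEN1, the nuclease that trims the flaps of Okazaki fragments, was at 20.5, 12.04 and 73.1 CPM across WT 1, 2 and 3, against 70.7, 64.1 and 78.1 CPM across ZNFX1 KO 1, 2 and 3. WT 1 and WT 2 were low, and WT 3 lay among the KO libraries (log2 fold change 1.01 with an SE of 0.56, adjusted p = 0.418 by edgeR). LIG1, the ligase that seals the fragments, had WT 1 (37.9 CPM) slightly above WT 3 (36.1 CPM) and WT 2 at 15.1 CPM, with a log2 fold change of 0.50 (SE 0.34). RPA is the trimer that coats single-stranded DNA. RPA1, its large subunit, had the smallest unadjusted p of the members and was at 54.5, 35.1 and 76.3 CPM across WT 1, 2 and 3, against 81.7, 102 and 79.5 CPM across ZNFX1 KO 1, 2 and 3. Every KO library was higher than every WT library, by as little as 79.5 against 76.3 CPM (log2 fold change 0.67 with an SE of 0.27, adjusted p = 0.307 by edgeR, unadjusted p = 0.0382). RPA2 was at 44.8, 37.7 and 61.4 CPM across WT 1, 2 and 3, against 54.7, 41.3 and 46.99 CPM across ZNFX1 KO 1, 2 and 3, with full overlap of the groups (log2 fold change -0.0094 with an SE of 0.22, adjusted p = 0.988 by edgeR). RPA3, the smallest subunit, was at 31.5, 15.02 and 39.5 CPM across WT 1, 2 and 3, against 45.6, 37.2 and 30.9 CPM across ZNFX1 KO 1, 2 and 3, so that ZNFX1 KO 3 lay below WT 1 (log2 fold change 0.40 with an SE of 0.33, adjusted p = 0.569 by edgeR).

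**Figure D3:**
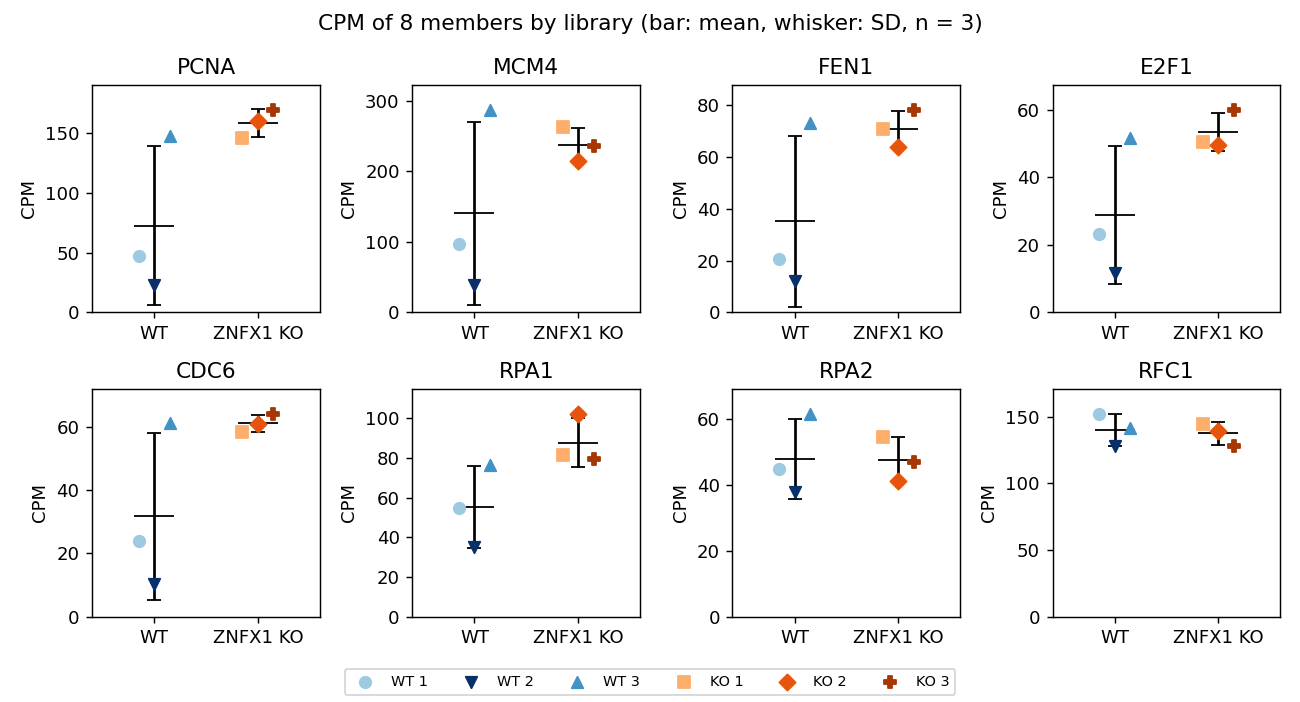
CPM of 8 members in the 6 libraries, with the mean (bar) and SD (whisker) of each group of 3. In PCNA, MCM4, FEN1, E2F1 and CDC6 the libraries WT 1 and WT 2 lie far below the other 4, in RPA1 the groups do not overlap, and RPA2 and RFC1 overlap.

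The genes that drive entry into S phase had medians relative to each gene's mean of 0.70 in WT 3, -0.66 in WT 1 and -1.65 in WT 2. E2F1, a transcription factor of the G1 to S border, was at 23.2, 11.6 and 51.6 CPM across WT 1, 2 and 3, against 50.5, 49.6 and 59.8 CPM across ZNFX1 KO 1, 2 and 3. WT 3 lay among the KO libraries (log2 fold change 0.89 with an SE of 0.45, adjusted p = 0.384 by edgeR). E2F2, its close relative, had the lowest TPM of the members (mean 1.73) and was at 24.4 CPM in WT 3, above all KO libraries (12.8 to 15.4 CPM). CCNE2, a cyclin that activates CDK2, was at 9.81, 5.01 and 34.8 CPM across WT 1, 2 and 3, against 26.2, 33.9 and 29.7 CPM across ZNFX1 KO 1, 2 and 3. WT 3 was the highest library and the KO libraries were next (log2 fold change 0.85 with an SE of 0.58, adjusted p = 0.503 by edgeR). CCNE1, the other E cyclin, was with GINS3 the only member whose lowest library was WT 1, at 7.35, 9.61 and 17.4 CPM across WT 1, 2 and 3, with KO libraries at 12.9 to 14.1 CPM.

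The remaining members act behind or around the fork. DTL directs CDT1 to destruction during S phase and was at 48.7, 16.3 and 97.9 CPM across WT 1, 2 and 3, against 104, 110.0 and 99.9 CPM across ZNFX1 KO 1, 2 and 3. All KO libraries lay above WT 3, though by as little as 99.9 against 97.9 CPM (log2 fold change 0.95 with an SE of 0.50, adjusted p = 0.405 by edgeR). SLBP, which binds the stem-loop of histone mRNAs, was at 38.9, 27.4 and 56.3 CPM across WT 1, 2 and 3, against 56.9, 56.4 and 50.9 CPM across ZNFX1 KO 1, 2 and 3. WT 3 lay inside the KO range (log2 fold change 0.42 with an SE of 0.25, adjusted p = 0.448 by edgeR). CHAF1A and CHAF1B, subunits of the histone chaperone CAF-1, had means of 23.5 ± 15.6 CPM for WT against 36.9 ± 3.49 CPM for ZNFX1 KO (mean ± SD, n = 3 per group) for CHAF1A and 17.1 ± 9.52 CPM for WT against 26.8 ± 2.55 CPM for ZNFX1 KO (mean ± SD, n = 3 per group) for CHAF1B. TIPIN, a fork protection factor, had a log2 fold change of 0.61 (SE 0.40), with 39.1% of its reads in the gene row. ORC6 and TIPIN aside, the 43 remaining members had at least 80% of their reads there.

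Leaving out 1 WT library at a time changed the comparison in opposite ways. Without WT 2, 0 of 45 members passed (smallest edgeR adjusted p = 0.569), 34 had a log2 fold change above 0 and the median was 0.25. Without WT 1, 0 passed (smallest edgeR adjusted p = 0.576) and the median was 0.50. Without WT 3, 23 of the 45 passed as higher (51.1%, against 4.09% of the 14585 genes then tested), 0 as lower, and the median was 1.15. The 23 spanned the roles. They took in CDC6 and GMNN of 5 licensing genes, MCM2, MCM3 and MCM4 of 6 helicase subunits, all 6 genes of helicase activation, POLA1 and POLE2 of 8 polymerase genes, PCNA of 6 clamp and loader genes, FEN1, RPA1, E2F1, E2F2 and CCNE2, and CHAF1A, CHAF1B, TIPIN and DTL. Their log2 fold changes without WT 3 ran from 0.90 (GINS3) to 2.19 (PCNA). FEN1 had the smallest adjusted p, 0.0121 by edgeR at a log2 fold change of 2.14 (SE 0.26), and over the 17 alternatives its adjusted p spanned 0.0121 to 0.769. In each of the 23, WT 1 and WT 2 both lay below all other libraries, and each call was made in 1 of the 17 alternatives, this one. Leaving out any 1 KO library gave 0 called members.

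**Figure D4:**
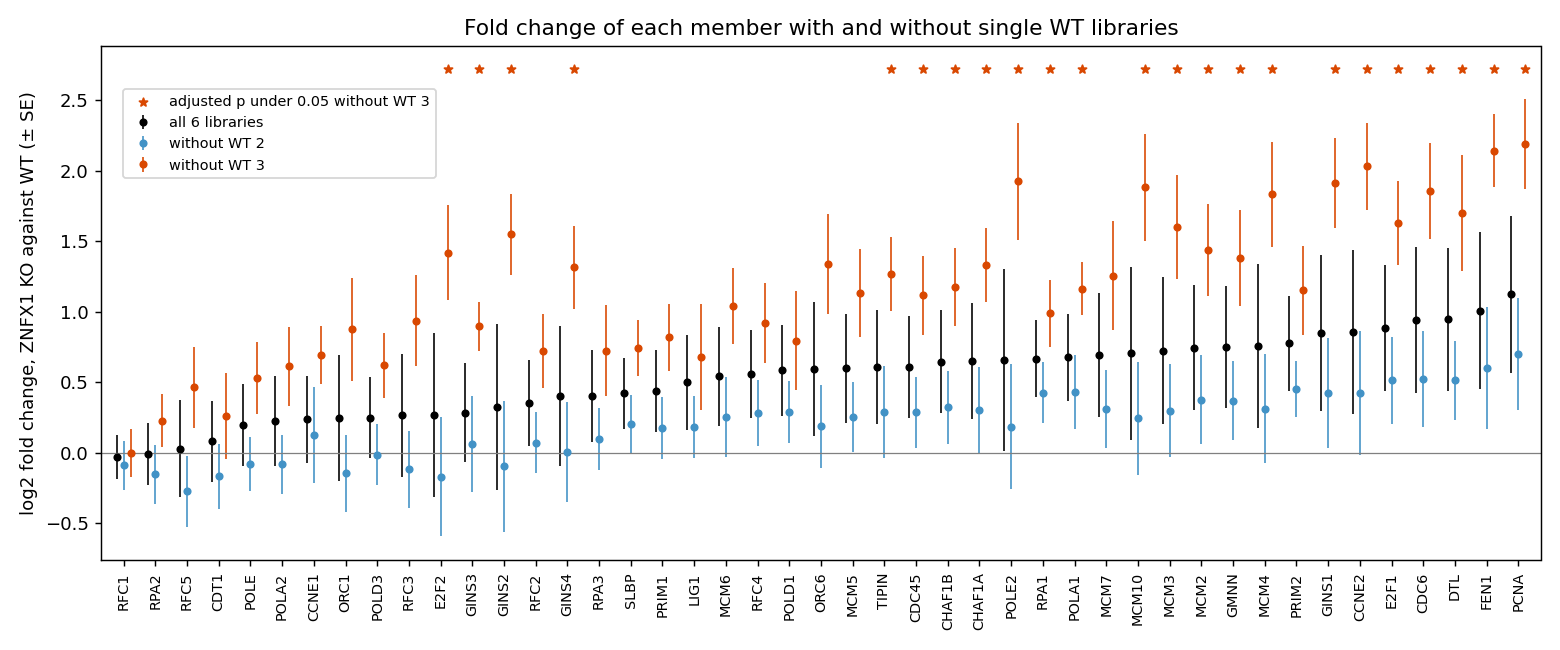
Log2 fold change of each member with its SE, from all 6 libraries, without WT 2 and without WT 3, with members in order of the first. Values without WT 3 lie above those without WT 2 in every member, and the stars mark the 23 members that passed at an adjusted p under 0.05 without WT 3.

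Other genes of the cell cycle were set beside the members. Of 42 further replication and S-phase genes, 0 passed by edgeR in either direction and 7 were higher and 0 lower at an unadjusted p under 0.05. Of the 14166 genes tested, 839 (5.92%) were higher and 1302 lower at that threshold. Their median log2 fold change was 0.53 with 38 values above 0, and WT 2 was the lowest library in 36. TYMS, which makes thymidylate for DNA, was at 15.1, 5.36 and 22.8 CPM across WT 1, 2 and 3, against 30.3, 44.8 and 36.4 CPM across ZNFX1 KO 1, 2 and 3. All KO libraries lay above all WT libraries (log2 fold change 1.36 with an SE of 0.44, adjusted p = 0.221 by edgeR), and TYMS passed in 3 of 17 alternatives (edgeR, DESeq2 or limma adjusted p 0.0198 to 0.518). Of its reads 71.5% were in its gene row. MCMBP, a binding partner of the MCM subunits, was at 94.8, 79.8 and 92.6 CPM across WT 1, 2 and 3, against 113, 139 and 125 CPM across ZNFX1 KO 1, 2 and 3 (log2 fold change 0.49 with an SE of 0.16, adjusted p = 0.238 by edgeR), with 56.2% of its reads in the gene row. Without WT 3, 18 of the 42 passed as higher and 1 as lower, against 596 (4.09%) and 719 of the 14585 genes then tested. Of the 26 G2 and M genes, 0 passed and 3 were higher at an unadjusted p under 0.05. WT 2 was the lowest library in 26 of 26, against 26.9% of all genes tested, and the median log2 fold change was 0.54. WT 3 was the highest library in 1 of these 26, where it was in 22 of the 45 members and in 13.7% of all genes. Every KO library lay above every WT library in 9 of 26, where it did in 3 of 45 and in 9.39% of all genes. The difference between these counts was not tested. Without WT 3, 4 of the 26 passed as higher. NDC80, a kinetochore protein, was at 32.4, 13.00 and 33.4 CPM across WT 1, 2 and 3, against 52.6, 59.7 and 55.9 CPM across ZNFX1 KO 1, 2 and 3 (log2 fold change 1.09 with an SE of 0.32, adjusted p = 0.192 by edgeR), and CDC20, an activator of the anaphase-promoting complex, was at 119.8, 72.99 and 138 CPM across WT 1, 2 and 3, against 180.1, 156 and 198 CPM across ZNFX1 KO 1, 2 and 3 (log2 fold change 0.69 with an SE of 0.25, adjusted p = 0.263 by edgeR). Among the alternatives, NDC80 passed with no filter on low counts (edgeR adjusted p = 0.0247) and by the DESeq2 Wald test (adjusted p = 0.0315).

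A list of genes of G1 arrest and quiescence also held the D cyclins, which drive the cycle. Of its 17 tested genes, 0 passed, and the median log2 fold change was -0.025. At an unadjusted p under 0.05, 1 was higher and 4 lower, against 839 and 1302 of the 14166 genes tested. GADD45A, a stress-induced growth arrest gene, was at 49.2, 73.6 and 24.7 CPM across WT 1, 2 and 3, against 25.05, 21.6 and 20.6 CPM across ZNFX1 KO 1, 2 and 3. It was highest in WT 2, next in WT 1, and about level in the other 4 (log2 fold change -1.13 with an SE of 0.35, adjusted p = 0.203 by edgeR). Among the alternatives, GADD45A passed with no filter on low counts (edgeR adjusted p = 0.0316), by the DESeq2 Wald test (adjusted p = 0.0396) and without WT 3 (edgeR adjusted p = 0.0163). CDKN1A, the p21 inhibitor of cyclin-dependent kinases, is named with its values already known. It stood at 112, 142 and 64.01 CPM across WT 1, 2 and 3, against 57.8, 69.2 and 77.2 CPM across ZNFX1 KO 1, 2 and 3, with WT 3 inside the KO range (log2 fold change -0.64 with an SE of 0.28, adjusted p = 0.331 by edgeR). CCND1, a D cyclin and not a brake of the cycle, was at 374, 309 and 324 CPM across WT 1, 2 and 3, against 412, 539 and 510.1 CPM across ZNFX1 KO 1, 2 and 3, with every KO library the higher (log2 fold change 0.54 with an SE of 0.18, adjusted p = 0.241 by edgeR).

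Further values that differed between the libraries are given beside those of the members. All 21 tested interferon-stimulated genes had their highest level in WT 2, where their median stood at 1.72, against 0.0067 in WT 1, -0.33 in WT 3 and -0.69 to -0.16 in the KO libraries. Of all genes tested, 27.4% had their highest level in WT 2. By edgeR 0 of the 21 passed, with 11 lower at an unadjusted p under 0.05, against 1302 of the 14166 genes tested. IFI6, an interferon-induced mitochondrial protein, was at 91.5, 403 and 90.6 CPM across WT 1, 2 and 3, against 72.7, 27.4 and 35.2 CPM across ZNFX1 KO 1, 2 and 3 (log2 fold change -2.11 with an SE of 0.63, adjusted p = 0.193 by edgeR), and IFIH1, the RNA sensor MDA5, was at 38.9, 149.8 and 21.5 CPM across WT 1, 2 and 3, against 15.3, 16.1 and 17.7 CPM across ZNFX1 KO 1, 2 and 3 (log2 fold change -2.10 with an SE of 0.62, adjusted p = 0.190 by edgeR). IFI6 and IFIH1 passed with no filter on low counts (edgeR adjusted p = 0.00505 and 0.00481) and without WT 3 (edgeR adjusted p = 0.0465 and 0.0246). Small structured RNAs (7SL, 7SK and the RNase P and MRP RNAs) took 12.2% of the gene fragments in WT 2, 11.1% in WT 1 and 7.48% in WT 3, against 10.2%, 6.64% and 9.42% in ZNFX1 KO 1, 2 and 3. The share of mitochondrial RNA was 11.8%, 11.4% and 13.1% in WT 2, 1 and 3 and 10.3% to 15.5% in the KO. Of the leukocyte list, nearly all reads were those of CD68, a lysosomal protein also made by other cells, at 182 TPM in WT 2, 120.0 in WT 1 and 80.2 to 105 in the other libraries. Summed over the list, leukocyte markers came to 222 to 495 CPM in WT and 166 to 279 CPM in the KO, endothelial markers to 1541 to 1848 CPM and 1643 to 1793 CPM, and fibroblast markers to 76.6 to 89.7 CPM and 86.3 to 98.3 CPM. The endothelial gene PECAM1 had the members' order within WT, at 16.2 TPM in WT 2, 32.6 in WT 1 and 69.9 in WT 3, but in the KO it was at 34.4, 46.4 and 30.6 TPM, nearer to WT 1 than to WT 3. The marker sums were scaled to the total of gene fragments alone. The members' CPM also carry TMM factors, of 1.04 for WT 3 and 0.985 for ZNFX1 KO 3. On the scale of the sums, the endothelial markers were at 1541, 1611 and 1848 CPM across WT 2, 1 and 3. In the KO they were at most 1793 CPM, in ZNFX1 KO 3. Division by the TMM factors places WT 3 below ZNFX1 KO 3, so on the members' scale the endothelial sum did not have the members' order. The mitochondrial share and the fibroblast sum did not have that order. The part of each of these in the difference between libraries was not tested.

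**Figure D5:**
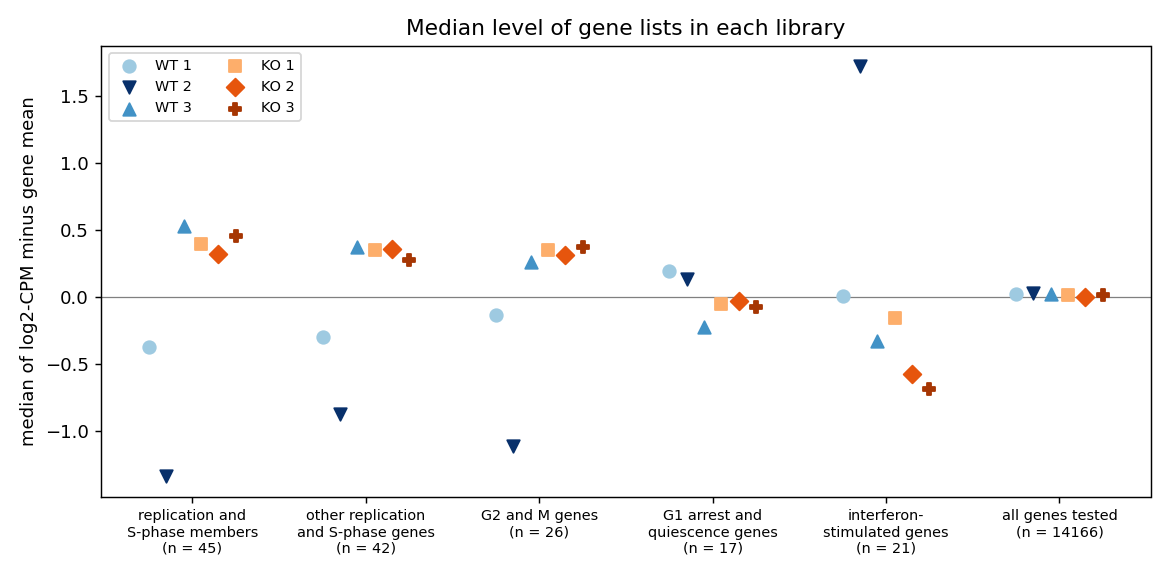
Median over each list of log2-CPM minus the gene's mean, 1 point per library. WT 2 is at -1.34 for the replication and S-phase members and at 1.72 for interferon-stimulated genes, and WT 1 is next lowest for the 3 dividing-cell lists. The medians of all genes tested lie near 0 in every library, where the scaling and the subtraction of each gene's mean place them.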

How the data were processed

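Total RNA of TYK-nu cells was made into stranded libraries and sequenced in pairs, per the labels' protocols. The submitters' processing notes name FastQC, Trimmomatic, Salmon and DESeq2. For the genome build, annotation and strand setting, none is named by the labels, notes or headers used here. The deposited values were estimated counts and TPM from Salmon, per the labels, with each row's length and effective length beside them. Each file had 197169 rows, 62260 for genes and 134909 for transcripts. GENCODE 29 joined 103521 of the transcript rows to a gene, and this joining was used as an alternative only. A gene lies on the opposite strand of 20 members, and a tested one of 12.

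The estimated counts of the gene rows were rounded. Low counts were filtered with filterByExpr, which left 14166 genes, and libraries were scaled by TMM (factors 0.958 to 1.04). The groups were compared with edgeR 4.0.16 (R 4.3.3) by its quasi-likelihood test with Benjamini-Hochberg adjustment and a threshold of 0.05. CPM values carry the TMM scaling, except the sums over marker lists, which were scaled to gene row totals alone. Log2-CPM carry a prior count of 2. DESeq2 1.42.0 and limma 3.58.1 were alternatives, and the fit was tested on simulated data. Values in every library are given for the 2 members of each role with the highest mean TPM (1 for roles of 2 or 3 genes), the 5 with the smallest unadjusted p in each direction, any called member, and, of the other lists, called genes and the 2 with the smallest unadjusted p. CDT1 and CDKN1A were added after their values were seen. The members and lists were chosen with earlier results of these data known. Promoter windows came from RefSeq tables of GRCh38.p14.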

Additional observations from a re-analysis of the deposited data

How the results depend on the processing

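In 16 of 17 alternatives 0 of the 45 members passed, and leaving out WT 3 gave 23, so that the replicates left out in turn gave 0 to 23. The median log2 fold change of the members ran from 0.25 to 1.15 over these, the members higher at an unadjusted p under 0.05 from 0 to 36, and the members whose groups did not overlap from 3 to 38. The 36 and 38 of 45, both without WT 3, stand against 14.97% and 23.6% of all genes then tested. With any other replicate left out, the members' shares were below those of all genes. Members higher at an unadjusted p under 0.05, 2 in the comparison reported, numbered 0 with library totals alone (against 4.09% of all genes). With no filter on low counts they numbered 20 (44.4%, against 5.37% of all genes). They were 6 with the DESeq2 Wald test (13.3%, against 6.9%) and 8 with limma-voom (17.8%, against 6.66%). There was 1 (2.22%) with limma on log2(TPM + 1), on log2(TPM + 0.1) and with the effective length offset, against 4.06%, 3.96% and 5.99%. Members whose groups did not overlap, 3 in the comparison reported, numbered 1 with library totals (2.22%, against 6.11% of all genes). With no filter they numbered 5 (11.1%, against 6.64%), a share above that of all genes. They were 0 on log2(TPM + 1) and 0 on log2(TPM + 0.1), against 4.98% of all genes in each. The cause was not tested. That count was not made for DESeq2, limma-voom, the length offset and the block.

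With the replicate number as a block, 0 members passed and 19 were higher at an unadjusted p under 0.05 (42.2%, against 6.69% of all genes). Deviations of libraries that share a number correlated at 0.129, -0.0405 and 0.00691 across genes, and those of different numbers at -0.096 to 0.0927. The labels do not say whether a number marks a pair, and these correlations cannot settle it. The block was kept as an alternative only.

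ZNFX1 had log2 fold changes of -1.03 to -0.53 with each replicate left out, and passed without WT 3 (-1.01, edgeR adjusted p = 0.0468). Over all genes the calls numbered 103 in the comparison reported, 602 with no filter, 579 with DESeq2, 50 and 46 on log2(TPM + 1) and log2(TPM + 0.1), 14 with the block, 187 with transcript rows joined, and 2 to 1315 with each replicate left out. Of the values of single named genes, 452 kept their side of the threshold and 24 kept their direction and passed it. The 452 include changes of sign in RFC1 and RPA2, whose log2 fold changes lay near 0. RFC1 went from -0.029 to 0.035 without WT 1, and RPA2 from -0.0094 to 0.23 without WT 3.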
